A study of Mus musculus with 6 samples.

Results

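Expression of 10 imprinted genes was followed in the inguinal fat pad, a subcutaneous white adipose depot. They are Peg3, Nnat, Mest, Igf2, Dlk1, Plagl1, Cdkn1c, Grb10, Sgce and Ndn, and they were taken by symbol from a table of 21900 distinct genes. Peg3 and Nnat were chosen by their FPKM, which were low in the knockouts of these same libraries, so their values are given as a description with no test. The other 8 genes were added as imprinted genes of adipose interest. The 3 knockout samples carry the genotype written Foxp4AdipoQdelta/delta, in which the forkhead transcription factor gene Foxp4 is deleted by a Cre under the adiponectin promoter, a promoter of mature adipocytes. The 3 control samples carry Foxp4fl/fl, the floxed gene, with no Cre named. All 6 samples are from C57BL/6 mice aged 2 months, housed at 22 °C and then kept at 4 °C for 7 days, a treatment that recruits thermogenic adipocytes in this depot. Cre and the loss of Foxp4 go together here, so their effects cannot be told apart. Whether a sample stands for 1 mouse or several is not in the labels, and the p-values cover the spread between samples only, which may be technical.

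An imprinted gene is transcribed mainly from the copy inherited from 1 parent, because germ line DNA methylation marks the parental copies differently. Many such genes control fetal growth, and several are known in mouse fat: Dlk1 and Ndn hold back adipocyte differentiation, Mest goes with fat cell enlargement, and Peg3 mutants are known for altered body fat. The zinc finger factor encoded by Plagl1 is known to regulate a network of other imprinted genes in the mouse. The values below are totals per gene and do not show from which parental copy a transcript came. In whole tissue, fewer cells of a type and less RNA per cell cannot be told apart.

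The libraries held 13180588 to 15998332 reads on annotated genes, as recovered from the FPKM (fragments per kilobase of exon, scaled to library depth) and the exon lengths. Foxp4 stood at 1.64 to 1.92 FPKM in knockouts and 4.01 to 5.76 FPKM in controls. Differences were fitted with limma on log2(FPKM + 1) over the 10787 genes that averaged 1 FPKM or more in knockouts or in controls, with p-values adjusted over all of them by the Benjamini-Hochberg method. A total of 1 gene (0.00927%) passed an adjusted p of 0.05, Mb, the oxygen-binding protein of muscle, which rose to 10.4 FPKM in knockouts, against 1.02 FPKM in controls (adjusted p = 0.042 in limma). The fold changes of all 6 skeletal muscle markers were above 0 on the log2 scale, with none called. Myh1 among them entered the test only through its knockout mean. The sums of the 6 were 18.5 to 274 FPKM in knockouts and 14.6 to 60.9 FPKM in controls. The part of these markers in the value of Mb was not tested. The number of genes past the adjusted threshold was 0 without a filter, 0 with a replicate block and 0 with voom on recovered reads. It was 0 to 5 when 1 library was left out. With no adjustment, at p of 0.05, 1848 genes (17.1%) lay lower and 753 (6.98%) higher in knockouts, and 1099 lower and 402 higher without knockout replicate 2. After median-of-ratios scaling of the libraries this split was 1005 lower and 1401 higher. Across the genes tested the median log2 fold change stood at -0.08. These shares are the background against which every count of imprinted genes is read.

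**Figure D1:**
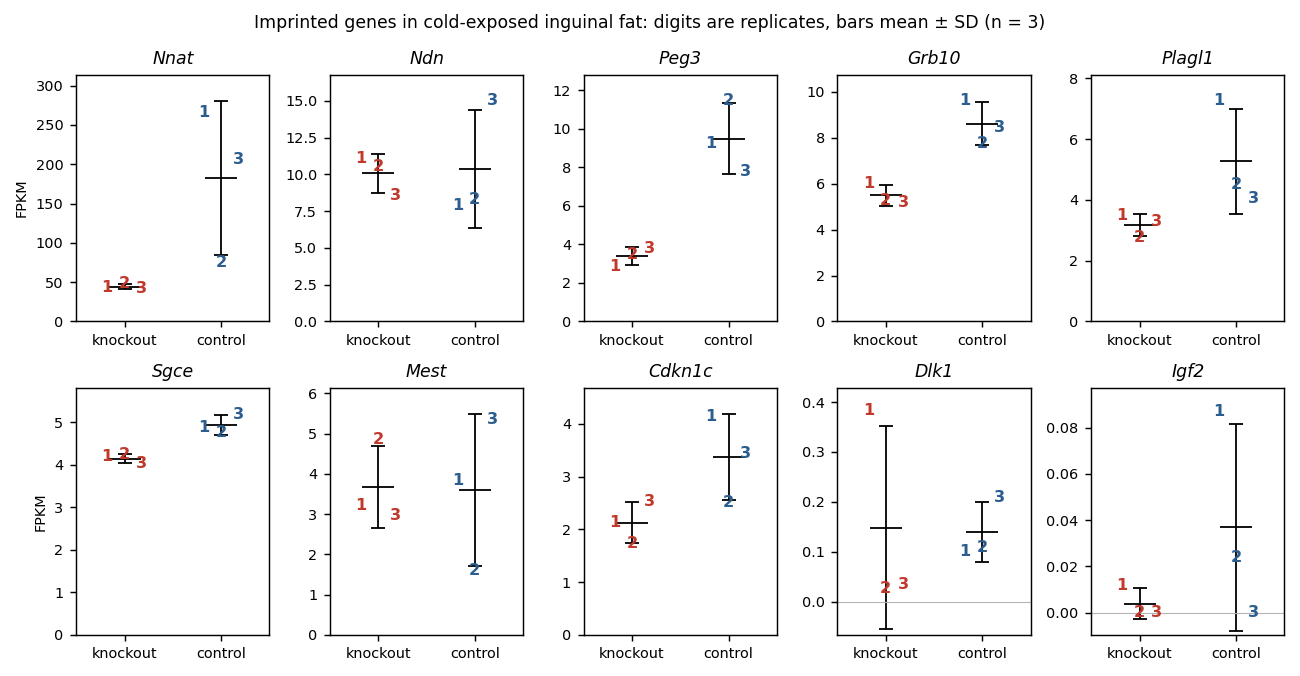
FPKM of the 10 imprinted genes (y axis, linear, its own scale per gene) in knockout and control libraries. Digits are replicate numbers, horizontal bars are group means and whiskers the SD (n = 3 per group). Peg3 lies at 2.87 to 3.81 FPKM in knockouts and 7.80 to 11.4 FPKM in controls, whereas the groups overlap for Ndn and Mest.

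Peg3 (chromosome 7, 6703892 to 6730431, minus strand, mm10) encodes a large zinc finger protein made from the paternal copy. It stood at 2.87, 3.49 and 3.81 FPKM in knockout replicates 1 to 3 and at 9.25, 11.4 and 7.80 FPKM in control replicates 1 to 3. Every knockout lay below every control, and the controls were more spread than the knockouts. The means were 3.39 ± 0.48 FPKM in knockouts and 9.50 ± 1.84 FPKM in controls (SD, n = 3 each), so the knockout mean was 0.357 times that of controls. Its depth was 565 to 768 reads per knockout library and 1674 to 2229 reads per control library. By FPKM, a level per length, Peg3 was the sixth of the members in knockouts, close to Mest and Plagl1 within their spread. In controls it was the third, close to Ndn and Grb10 within theirs.

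The start of Peg3 is shown because it is shared: Usp29, a paternally expressed neighbour on the opposite strand, starts in the same stretch, and their 300-base windows share 263 bases. The window of Peg3 runs from 250 bases before its start to 50 after it, at chr7:6730370-6730669 on the minus strand (RefSeq, GRCm38.p6, the assembly behind mm10). Capitals mark GGGGCCCC, the consensus known for the Plagl1 protein, 201 bases upstream of the start.
Peg3: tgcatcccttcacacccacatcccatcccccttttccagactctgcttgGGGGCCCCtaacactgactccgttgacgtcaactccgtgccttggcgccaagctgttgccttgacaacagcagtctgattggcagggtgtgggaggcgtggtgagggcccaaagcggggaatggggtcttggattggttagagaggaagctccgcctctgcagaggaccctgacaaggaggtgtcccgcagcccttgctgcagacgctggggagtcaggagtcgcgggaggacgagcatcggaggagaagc
Usp29 had 0, 1 and 2 reads in knockouts and 0, 0 and 1 reads in controls, at or under the 3 reads that a count of 0 allows, so no fold is given for it. The Plagl1 letters were searched on both strands, where they read the same, and 1.08% of 32851 mouse start windows of this length hold them. Counted by gene, 1.25% of 27025 genes hold them in at least 1 window. Among the 8 members with a window in the RefSeq table, Peg3 alone held them.

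Nnat (chromosome 2, 157560078 to 157562522, plus strand) encodes neuronatin, a small membrane protein of the endoplasmic reticulum that is found in neurons and adipocytes. It had the highest FPKM of the 10 genes in both groups. It stood at 42.9, 48.0 and 41.9 FPKM in knockout replicates 1 to 3 and at 266, 75.5 and 206 FPKM in control replicates 1 to 3. The knockouts were alike, with the highest 1.15 times the lowest, whereas the highest control was 3.53 times the lowest. Control replicate 2 lay far below the other controls yet above every knockout. The means were 44.3 ± 3.30 FPKM in knockouts and 183 ± 97.6 FPKM in controls (SD, n = 3 each), on 1160 to 1167 reads per knockout library and 2017 to 6863 reads per control library. On the log2(FPKM + 1) scale the difference was -1.84 (SE 0.42) for Nnat and -1.25 (SE 0.14) for Peg3, given without a test.

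Nnat lies within the span of Blcap, which is transcribed from the opposite strand, and their exons share 0 bases in the GENCODE M21 annotation. Its start window, at chr2:157559828-157560127 on the plus strand, is shown because it holds a motif that recurs in another member. Capitals mark GCATGCGC on either strand, the core known for the factor NRF1, which here overlaps its own reverse complement within 26 bases of the start.
Nnat: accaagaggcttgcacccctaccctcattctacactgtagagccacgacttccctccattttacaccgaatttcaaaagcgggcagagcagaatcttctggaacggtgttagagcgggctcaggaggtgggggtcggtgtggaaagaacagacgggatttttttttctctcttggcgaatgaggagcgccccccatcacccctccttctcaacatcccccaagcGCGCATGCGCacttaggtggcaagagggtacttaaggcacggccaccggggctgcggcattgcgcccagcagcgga
The window of Ndn, at chr7:62348027-62348326 on the plus strand, holds the same letters 22 bases upstream of its start.
Ndn: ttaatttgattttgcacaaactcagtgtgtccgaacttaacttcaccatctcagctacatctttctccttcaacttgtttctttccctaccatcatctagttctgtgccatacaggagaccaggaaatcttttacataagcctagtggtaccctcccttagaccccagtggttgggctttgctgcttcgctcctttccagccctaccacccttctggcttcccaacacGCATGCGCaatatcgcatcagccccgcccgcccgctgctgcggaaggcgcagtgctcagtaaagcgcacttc
These letters occur in 2.71% of the 32851 windows and in 3.05% of the 27025 genes with a window. The motif was chosen after the sequences were seen.

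Among the growth regulators, Grb10 (chromosome 11, 11930508 to 12038683, minus strand) encodes an adaptor that dampens signalling from the insulin receptor. It stood at 6.01, 5.25 and 5.19 FPKM in knockouts and at 9.60, 7.76 and 8.46 FPKM in controls. The groups did not overlap, and both were tight. Its log2 fold change was -0.56 (SE 0.10), and its adjusted p of 0.076 in limma missed the threshold. Cdkn1c (chromosome 7, 143458339 to 143461050, minus strand), which encodes an inhibitor of cyclin-dependent kinases, stood at 2.12, 1.74 and 2.53 FPKM in knockouts and at 4.14, 2.52 and 3.44 FPKM in controls. The highest knockout and the lowest control were level, so the groups overlapped slightly. The log2 difference of -0.47 (SE 0.16) had an adjusted p of 0.15 in limma, on 47 to 78 reads per knockout library and 75 to 119 reads per control library. An antisense transcript covers 30.7% of its exon bases, and the strand setting of the counting is not given in the sources used here, so the values of Cdkn1c may hold reads of both.

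Igf2, the fetal growth factor expressed from the paternal copy, had few or no reads counted in these libraries. It had 1, 0 and 0 reads in knockouts and 7, 2 and 0 reads in controls, and a count of 0 allows up to 3 reads, which is 0.0325 to 0.0395 FPKM for this gene. At this depth no difference was detectable. The gene shares 62.8% of its exon bases with Gm49394, a gene annotated on the same strand, so its reads are uncertain. The receptor that clears Igf2, encoded by the maternally expressed Igf2r, stood at 8.85, 10.5 and 8.74 FPKM in knockouts and at 11.7, 11.2 and 11.3 FPKM in controls, without overlap (log2 fold change -0.26, SE 0.09, adjusted p = 0.14 in limma).

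Plagl1 (chromosome 10, 13060504 to 13131694, plus strand), the zinc finger factor of the imprinted gene network, stood at 3.48, 2.75 and 3.28 FPKM in knockouts and at 7.25, 4.51 and 4.05 FPKM in controls. Control replicate 1 was far above the other controls, and the groups did not overlap. On the log2 scale knockouts lay at -0.56 relative to controls (SE 0.19, limma adjusted p = 0.14), and at -0.34 without control replicate 1. Ndn (chromosome 7, 62346569 to 62350262, plus strand) encodes necdin, a protein of the MAGE family. It stood at 11.1, 10.5 and 8.57 FPKM in knockouts and at 7.88, 8.28 and 15.0 FPKM in controls. Its highest and lowest values were both controls. The means were 10.1 ± 1.33 FPKM in knockouts and 10.4 ± 4.00 FPKM in controls (SD, n = 3 each), with a log2 fold change of 0.01 (SE 0.23, adjusted p = 0.99 in limma).

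Dlk1 (chromosome 12, 109452823 to 109463336, plus strand), a membrane protein of preadipocytes that holds back their differentiation, was barely detected. It had 32, 2 and 3 reads in knockouts and 8, 9 and 19 reads in controls. Knockout replicate 1 was the highest of all 6 libraries and the other knockouts were the lowest, so the groups overlapped entirely, and the gene did not reach the 1 FPKM needed for the test. Its start window, at chr12:109452573-109452872 on the plus strand, is shown as the only one of the 8 members' that holds TGTTTAC, the letters known for forkhead factors of the Foxp family. Capitals mark them, 87 and 67 bases upstream of the start.
Dlk1: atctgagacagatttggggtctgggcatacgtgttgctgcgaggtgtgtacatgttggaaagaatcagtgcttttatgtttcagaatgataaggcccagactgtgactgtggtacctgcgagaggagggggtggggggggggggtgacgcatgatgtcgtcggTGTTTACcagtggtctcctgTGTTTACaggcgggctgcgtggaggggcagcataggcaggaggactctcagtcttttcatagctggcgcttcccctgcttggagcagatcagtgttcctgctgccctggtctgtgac
They were searched on both strands and occur in 3.65% of all windows and in 4.05% of the 27025 genes with a window. The windows of Peg3, Nnat, Ndn, Mest, Plagl1, Grb10 and Igf2 do not hold these letters, which says only that they are not within the 300 bases searched.

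Mest (chromosome 6, 30723547 to 30748465, plus strand) encodes a membrane protein of the endoplasmic reticulum with a hydrolase fold. It stood at 3.22, 4.85 and 2.96 FPKM in knockouts and at 3.83, 1.60 and 5.35 FPKM in controls. The controls held both the highest and the lowest library, and the groups differed by 0.10 on the log2 scale (SE 0.32, limma adjusted p = 0.87). Without knockout replicate 2 or without control replicate 2 its sign was the opposite. Mest overlaps 912 exon bases of Copg2 on the opposite strand, 23.1% of its own exons, and Copg2 is expressed at 9.65 FPKM in knockouts and 10.9 FPKM in controls, so part of the Mest value may be reads of Copg2. Sgce (chromosome 6, 4674350 to 4747207, minus strand), a sarcoglycan of the cell membrane, stood at 4.19, 4.24 and 4.02 FPKM in knockouts and at 4.87, 4.75 and 5.19 FPKM in controls. It varied the least of the 10 genes within groups and showed a small gap without overlap. That gap was -0.21 on the log2 scale (SE 0.07, limma adjusted p = 0.16), and -0.12 after median-of-ratios scaling.

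In all, 8 of the 10 members reached 1 FPKM in both groups and entered the test. In 5 of them every knockout was below every control, in 0 every knockout was above, and in 3 the groups overlapped. Over all genes tested 22.7% had every knockout below every control and 8.48% had every knockout above. Nothing is read from the members' count, because the drop of Peg3 and Nnat in this contrast entered their choice. None of the 6 tested members other than Peg3 and Nnat passed an adjusted p of 0.05 in limma.

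**Figure D2:**
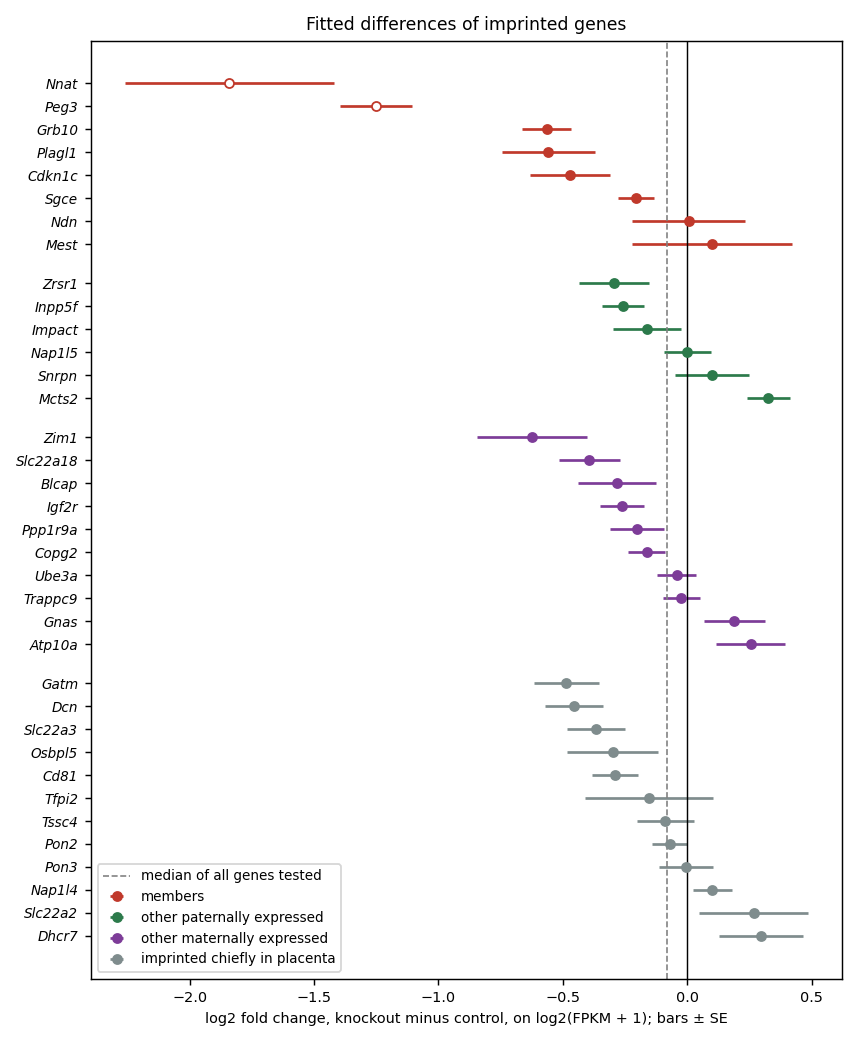
Log2 fold changes (x axis, knockout minus control on the log2(FPKM + 1) scale) of the tested imprinted genes, with bars of ± SE from limma. Open circles are Peg3 and Nnat, which were chosen for their drop. The 16 other imprinted genes lie between -0.63 (Zim1) and 0.33 (Mcts2), and the dashed line marks the median of all genes tested, -0.08.

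The remaining imprinted genes were taken from lists of paternally and maternally expressed genes of the mouse. Of 43 listed genes other than the members, 35 were in the table and 16 reached the filter. None passed an adjusted p of 0.05 in limma. Zim1 entered only through its control mean. Of the other 15, which reached 1 FPKM in both groups, 3 were lower (Inpp5f, Slc22a18 and Igf2r) and 1 higher (Mcts2) before adjustment, with a median log2 fold change of -0.16. Among all 10329 genes that reached 1 FPKM in both groups, 16.9% were lower and 6.98% higher. Counted with Zim1 the lower genes are 4. Without knockout replicate 2 or without control replicate 1 that count was 2, and after median-of-ratios scaling it was 2 lower and 2 higher. By the parental copy named in those lists, 1 of 6 paternally expressed and 2 of 9 maternally expressed genes with 1 FPKM in both groups were lower. Whether these genes are imprinted in this depot was not tested.

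Of the paternally expressed genes, Impact, a regulator of translation under amino acid shortage, stood at 9.04 ± 0.75 FPKM in knockouts and 10.3 ± 1.94 FPKM in controls (SD, n = 3 each). Mcts2, a retrogene that lies in an intron of H13 and may share reads with its source gene Mcts1, stood at 11.8 ± 1.14 FPKM in knockouts and 9.19 ± 0.29 FPKM in controls, without overlap (log2 fold change 0.33, adjusted p = 0.11 in limma). Inpp5f, an inositol phosphatase, had 2.42 ± 0.17 FPKM in knockouts and 3.09 ± 0.19 FPKM in controls, also without overlap (log2 fold change -0.26, adjusted p = 0.14). Nap1l5 had means of 4.23 FPKM in both groups. Zrsr1, a splicing factor retrogene within Commd1, had 2.84 FPKM in knockouts and 3.68 FPKM in controls, and Snrpn, a protein of spliceosomal particles, had 1.92 FPKM in knockouts and 1.74 FPKM in controls. Both overlap exons of other genes in the annotation, so their values are uncertain.

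Of the maternally expressed genes, Slc22a18, a transporter, stood at 2.66 ± 0.31 FPKM in knockouts and 3.82 ± 0.65 FPKM in controls (SD, n = 3 each), without overlap (log2 fold change -0.39, adjusted p = 0.13 in limma). It starts 12.7 kb from Cdkn1c in the same imprinted cluster. The ubiquitin ligase gene Ube3a had 2.69 FPKM in knockouts and 2.80 FPKM in controls, Trappc9 had 8.17 FPKM in knockouts and 8.33 FPKM in controls, and Blcap had 36.5 FPKM in knockouts and 45.2 FPKM in controls, all with overlapping groups. Antisense transcripts share exon bases with Ube3a, so its values are uncertain.

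Zim1, named here as the neighbour of Peg3 after its values were seen, is a maternally expressed zinc finger gene that starts 34.0 kb from Peg3. It stood at 0.27, 0.58 and 0.61 FPKM in knockouts and at 1.38, 2.00 and 0.66 FPKM in controls. It entered the test only through its control mean, so that its difference (log2 fold change -0.63, SE 0.22, adjusted p = 0.16 in limma) is given as a description. The level of Zim1 was 0.0934 to 0.165 times that of Peg3 in knockouts and 0.0846 to 0.174 times in controls, an overlapping range. Both genes were picked with their values in these libraries known, so this ratio is a description and shows nothing about a shared change.

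**Figure D3:**
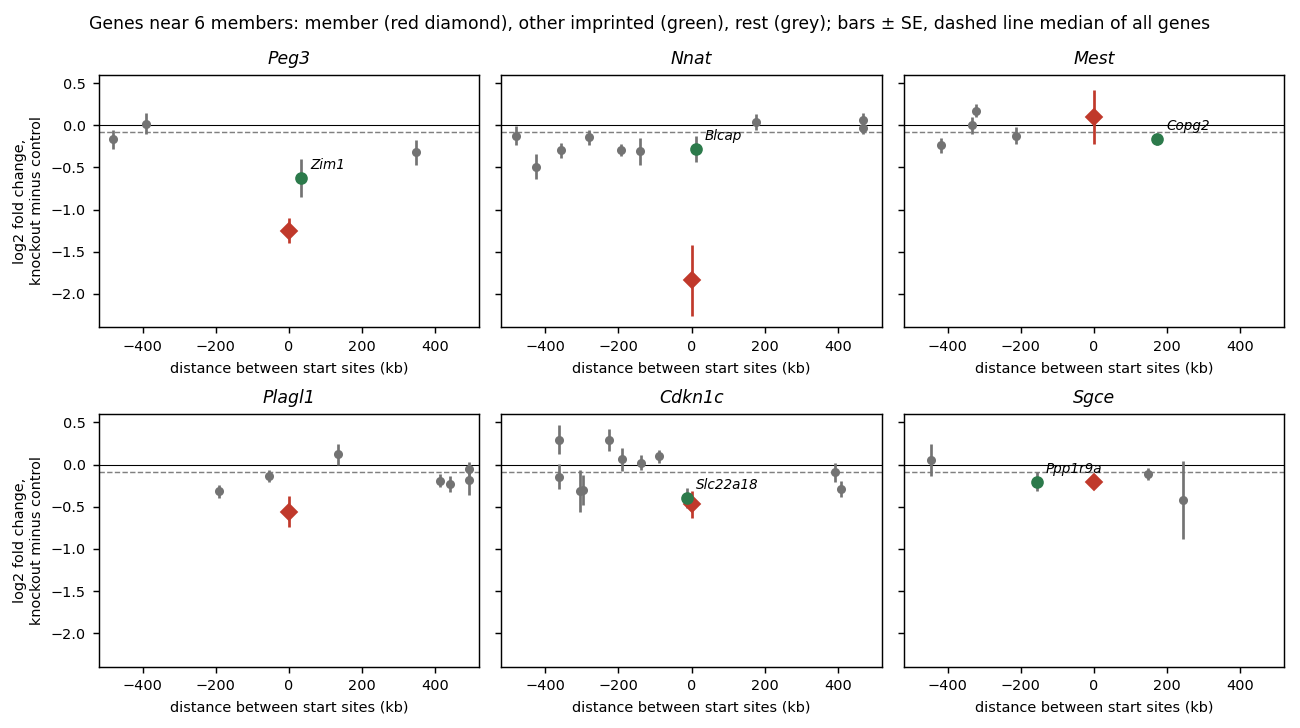
Log2 fold changes (y axis, knockout minus control, ± SE) of 6 members (red diamonds), other imprinted genes (green, named) and the remaining tested genes (grey) that start within 500 kb of them, against the distance between start sites in kb along the member's strand. Beside Nnat at -1.84, its host gene Blcap lies at -0.28, and beside Peg3 at -1.25, Zim1 lies at -0.63.

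Genes around the members were compared with them over 500 kb on either side, a distance chosen after the data were seen. The neighbours named here were chosen after their values were seen. Across the 10 surroundings 46 genes that are not members reached 1 FPKM in both groups, of which 10 were lower and 1 higher before adjustment, with a median log2 fold change of -0.14. Over all genes on the same condition the shares were 16.9% and 6.98%. Blcap, the host of Nnat, had a log2 fold change of -0.28 (SE 0.16, adjusted p = 0.30 in limma), and the next neighbours Ctnnbl1 and Src had 0.04 and -0.31. Around Nnat 3 of 10 genes were lower before adjustment and 0 higher, Samhd1 (-0.49), Rbl1 (-0.30) and Manbal (-0.29). None passed after adjustment in limma. Each of the 3 had every knockout below every control, as had 22.7% of all genes tested. Around Plagl1, 3 of 7 tested genes were lower before adjustment, Utrn, Phactr2 and Fuca2, with log2 fold changes between -0.19 and -0.31. Around Sgce 0 of 4 were lower, and around Peg3 0 of 3, leaving out Zim1, which entered through its control mean.

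Of the other genes of the imprinted gene network around Plagl1, 4 were tested. Before adjustment 3 were lower and 0 higher, and after it 0 passed in limma. The lower count was 2 after median-of-ratios scaling, and 2 without knockout replicate 1, knockout replicate 3 or control replicate 1. Over all genes tested 17.1% were lower and 6.98% higher. Regulation of these 4 genes by Plagl1 was not tested. Decorin (Dcn), a matrix proteoglycan, stood at 124 ± 4.60 FPKM in knockouts and 171 ± 24.3 FPKM in controls (SD, n = 3 each; log2 fold change -0.46, adjusted p = 0.098 in limma). Gatm, of creatine synthesis, had 3.16 ± 0.63 FPKM in knockouts and 4.81 ± 0.58 FPKM in controls (log2 fold change -0.49, adjusted p = 0.11). The third is Igf2r. Gnas, whose exons overlap genes on the other strand and whose values are therefore uncertain, had 2.58 FPKM in knockouts and 2.14 FPKM in controls.

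Genes imprinted chiefly in the placenta gave 4 lower and 0 higher before adjustment of the 11 that reached 1 FPKM in both groups, and 0 after it in limma, with a median log2 fold change of -0.09. Without knockout replicate 2 the lower count was 2. Over all genes on the same condition the shares were 16.9% lower and 6.98% higher. The tetraspanin Cd81 had 40.4 FPKM in knockouts and 49.8 FPKM in controls, the transporter Slc22a3 had 14.3 FPKM in knockouts and 18.8 FPKM in controls, and the paraoxonase Pon3 had 29.4 FPKM in both. Nap1l4 had 51.5 FPKM in knockouts and 48.0 FPKM in controls, and Pon2 had 8.77 FPKM in knockouts and 9.26 FPKM in controls. Dcn and Gatm, described with the network, are the other lower genes.

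Relatives of the members that are not imprinted were lower in 2 and higher in 1 of 9 tested before adjustment, while 0 passed after it in limma, and the median log2 fold change was -0.14. The lower count was 1 when knockout replicate 2 or 3, or control replicate 1 or 3, was left out. Over all genes tested the shares were 17.1% lower and 6.98% higher. Plagl2, named after its values were seen, is the other lower gene beside Cdkn1b, at 1.72 FPKM in knockouts and 2.17 FPKM in controls. Cdkn1a stood at 9.08, 9.56 and 15.2 FPKM in knockouts and at 6.03, 6.43 and 3.72 FPKM in controls, with every knockout above every control (log2 fold change 0.94, SE 0.23, adjusted p = 0.097). Cdkn1b stood at 7.03, 7.49 and 7.90 FPKM in knockouts and at 9.72, 9.71 and 11.7 FPKM in controls, with every knockout below every control (log2 fold change -0.42, SE 0.09, adjusted p = 0.088). Of the others, Igf1 had 13.1 FPKM in knockouts and 16.9 FPKM in controls, and the sarcoglycan gene Sgcb had 15.0 FPKM in knockouts and 13.6 FPKM in controls. The relatives of Ndn overlapped between groups: Maged1 had 41.6 FPKM in knockouts and 45.9 FPKM in controls, and Maged2 had 7.01 FPKM in knockouts and 7.49 FPKM in controls.

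The list for imprint maintenance held methyltransferases, the factors that guide them, and also Tet enzymes, which oxidise methylated cytosine rather than keep it. Of its 9 tested genes 1 was lower and 0 higher before adjustment, against 17.1% and 6.98% of all genes tested. After adjustment 0 of the 9 passed in limma. Their median log2 fold change was -0.15, against -0.08 over all genes tested. The lower gene is Trim28, the corepressor that zinc finger proteins recruit to imprinted regions. It stood at 10.9 ± 0.94 FPKM in knockouts and 14.3 ± 2.00 FPKM in controls (SD, n = 3 each), without overlap (log2 fold change -0.36, adjusted p = 0.13 in limma). That count became 0 once knockout replicate 2 was left out, 2 once control replicate 1 was, and 3 once control replicate 2 was. The maintenance methyltransferase Dnmt1 had 3.27 FPKM in knockouts and 3.58 FPKM in controls, Zfp445, which binds imprinted regions, had 12.2 FPKM in knockouts and 13.6 FPKM in controls, and Ctcf, an insulator protein, had 8.54 FPKM in knockouts and 9.71 FPKM in controls. The histone methyltransferase gene Setdb1 had 3.45 FPKM in knockouts and 3.98 FPKM in controls, and Tet3, which oxidises methylated cytosine, had 2.93 FPKM in knockouts and 3.78 FPKM in controls. All 9 tested genes had a log2 fold change below 0, as had 66.0% of all genes tested. In 4 of the 9 (Trim28, Ctcf, Smchd1 and Tet2) every knockout was below every control, against 22.7% of all genes tested. Both counts are without median-of-ratios scaling.

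**Figure D4:**
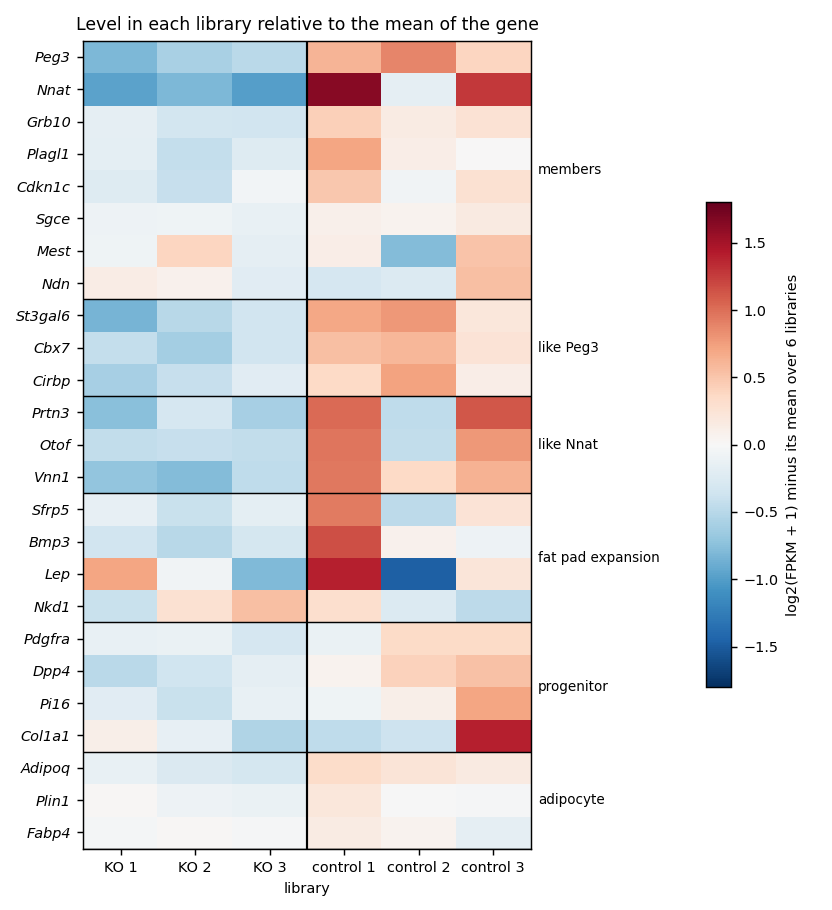
Level of each gene in each library as log2(FPKM + 1) minus the mean of that gene over the 6 libraries (colour), with knockouts to the left of controls. Nnat is high in control replicates 1 and 3 (266 and 206 FPKM) and much lower in control replicate 2 (75.5 FPKM), while Peg3 is high in all 3 controls.

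Genes known to vary with fat pad expansion in mice had a wide range among the controls. Leptin (Lep), the adipocyte hormone, stood at 109, 63.3 and 37.8 FPKM in knockouts and at 176, 23.3 and 77.4 FPKM in controls, so control replicate 2 was the lowest of all and control replicate 1 the highest. Sfrp5, a secreted Wnt antagonist, stood at 3.77, 2.97 and 3.69 FPKM in knockouts and at 9.12, 2.81 and 5.26 FPKM in controls. Nnat, Lep and Sfrp5 were lowest among controls in replicate 2, whereas Peg3 was highest there. Mest was likewise lowest in control replicate 2. Bmp3, a growth factor of the same group, stood at 3.30, 2.86 and 3.39 FPKM in knockouts and at 11.2, 4.75 and 4.12 FPKM in controls, without overlap (log2 fold change -0.77, SE 0.30, adjusted p = 0.19 in limma). Nkd1, a Wnt inhibitor, overlapped between groups, at 1.44, 2.91 and 3.71 FPKM in knockouts and at 2.99, 1.71 and 1.32 FPKM in controls. Bmp3 and Nkd1 were lowest in control replicate 3, not in control replicate 2, so the 4 genes had no common order among controls.

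The genes whose pattern over the 6 libraries was nearest to a member were found by the root mean square distance of centred log2(FPKM + 1). They were picked by likeness to the values that chose Peg3 and Nnat. Their lower levels in knockouts follow from that choice and are given as a description. For Peg3, whose own values had a root mean square of 0.65 about their mean, these were St3gal6 (distance 0.12), Cbx7 (0.21) and Cirbp (0.23). St3gal6, a sialyltransferase, stood at 2.77, 3.79 and 4.29 FPKM in knockouts and at 9.97, 10.6 and 6.79 FPKM in controls, so its order of libraries was that of Peg3. Cbx7 encodes a Polycomb protein and had 2.75 FPKM in knockouts and 6.11 FPKM in controls. Cirbp encodes a cold-inducible RNA-binding protein and had 12.7 FPKM in knockouts and 23.2 FPKM in controls. For Nnat, with a root mean square of 1.07 about its mean, the nearest were less close: Prtn3 (distance 0.40), Otof (0.50) and Vnn1 (0.51). Otof entered the test only through its control mean. Vnn1, a pantetheinase, stood at 1.29, 1.18 and 1.72 FPKM in knockouts and at 6.20, 3.80 and 4.78 FPKM in controls. Prtn3, a protease of myeloid cells, had 1.19 FPKM in control replicate 2, inside the knockout range of 0.78 to 1.43 FPKM.

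No marker of a cell type passed an adjusted p of 0.05 in limma, and the counts of lower and higher markers that follow are before adjustment. Over all genes tested 17.1% were lower and 6.98% higher on that count. After median-of-ratios scaling 1005 of all genes were lower and 1401 higher. Summed over 8 markers, mature adipocyte levels were 9609.7 to 10612 FPKM in knockouts and 12326 to 13477 FPKM in controls, with 3 of 8 lower and 0 higher. Without Cfd the sums overlapped, at 6041 to 6405 FPKM in knockouts and 6256 to 7677 FPKM in controls. The largest markers, Cfd and Fabp4, had 3999.9 and 2483 FPKM in knockouts and 6162 and 2539 FPKM in controls. Progenitor and fibroblast markers summed to 381 to 509 FPKM in knockouts and 380 to 1037 FPKM in controls, overlapping and highest in control replicate 3, with 4 of 12 lower and 0 higher. Ndn, too, was highest in control replicate 3. Macrophage markers summed to 244 to 332 FPKM in knockouts and 408 to 525 FPKM in controls, with 5 of 5 lower. The part of these cell types in the differences of the imprinted genes was not tested.

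The remaining types overlapped between groups in their summed markers, as the progenitor markers did. Mural markers gave 71.0 to 81.3 FPKM in knockouts and 57.4 to 132 FPKM in controls, with 0 of 6 called. Endothelial markers gave 66.5 to 79.9 FPKM in knockouts and 61.8 to 115 FPKM in controls, with 2 of 5 lower and 0 higher. Schwann cell and nerve markers gave 48.4 to 67.4 FPKM in knockouts and 53.7 to 84.1 FPKM in controls. Of the 5 tested among them, 1 was lower (Mbp) and 1 higher (S100b). Skeletal muscle markers gave 18.5 to 274 FPKM in knockouts and 14.6 to 60.9 FPKM in controls, with 0 of 6 called in either direction. Epithelial markers stayed at or below 1.13 FPKM in sum with Krt14 at 0, and lymph node markers at or below 2.54 FPKM.

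Set against single markers, chosen after their values were seen, Peg3 and Nnat stood as follows. The ratio of Peg3 to Pdgfra, the receptor that marks progenitors, was 0.345, 0.417 and 0.522 in knockouts and 1.11, 0.959 and 0.650 in controls. To Pdgfrb, a mural and progenitor receptor, Peg3 stood at 0.298, 0.363 and 0.434 in knockouts and 0.911, 1.55 and 0.501 in controls. The ratio of Nnat to Plin1, a lipid droplet protein of adipocytes, was 0.0954, 0.116 and 0.103 in knockouts and 0.523, 0.171 and 0.473 in controls. Against Adipoq, itself lower in every knockout, Nnat gave 0.0459 to 0.056 in knockouts and 0.0628 to 0.207 in controls. These ratios inherit the choice of Peg3 and Nnat for their drop, so the order of the groups in them is a description and shows nothing about cell types.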

How the data were processed

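The libraries are from a stranded mRNA kit, per the labels' protocols. The tools cutadapt, HISAT2, HTSeq and the build mm10 appear in the submitters' processing notes. Their versions, the annotation and the strand setting were not given in the sources used here. The deposited values are FPKM per gene, a unit read from the values: 97.87 to 98.07% of values up to 50 reads were whole reads, within 0.05, once multiplied by GENCODE M21 exon lengths and 1 factor per library. Where symbols repeat among the 21936 rows, the row with the highest mean was used, which dropped 36. Reads could be recovered for 21303 genes.

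Genotype was tested with limma 3.58.1 in R 4.3.3 (mean-variance trend) on log2(FPKM + 1), a scale that understates the change of low genes, over 10787 genes averaging 1 FPKM or more in knockouts or in controls. With 3 samples a group, an exact permutation p (two-sided) is 0.1 or more, and lower p-values rest on the model of limma. The script was tested on simulated data. The members, lists and tests were chosen with earlier results of these data known. Named genes are the members, up to 6 of the highest genes of each list, the 3 genes nearest to Peg3 and to Nnat, and the leading cell type markers. Neighbours of the members, Mb, Zim1, Plagl2, the markers used in ratios and the low imprinted genes of the closing section were named after their values were seen. The analysis used a pseudocount of 0.1, no filter, a replicate block, leaving out each library, and median-of-ratios scaling as alternatives, with voom on recovered reads added after the data were seen. Promoter windows are from RefSeq (GRCm38.p6), with 8 members matched and Cdkn1c and Sgce not.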

Additional observations from a re-analysis of the deposited data

How the results depend on the processing

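The number of genes at an adjusted p of 0.05 over all 10787 was 1, and it was 0 without a filter, 0 with the replicate block and 0 with voom, and 0 to 5 when a library was left out (0 without knockout replicate 1 or control replicate 1, 3 without knockout replicate 3 and 5 without control replicate 3). With voom 1870 genes were lower and 706 higher before adjustment. At an unadjusted p of 0.05, 1005 genes were lower and 1401 higher after median-of-ratios scaling, and 1099 to 2060 were lower and 402 to 893 higher without 1 library. Among imprinted genes other than the members the count was 2 lower and 2 higher after that scaling, and 2 to 5 lower and 1 to 2 higher without 1 library, the higher count being 2 without knockout replicate 3. For genes imprinted chiefly in placenta it was 2 to 5 lower and 0 to 1 higher without 1 library, the 1 being without control replicate 2. For paralogs it was 1 lower with the replicate block, 1 lower after scaling, 1 to 3 lower without 1 library and 2 higher without a filter. For imprint maintenance it was 0 to 3 lower without 1 library and 3 lower with voom. The log2 fold change of Peg3 was -1.48 with voom and -1.37 to -1.12 without 1 library, and that of Nnat -2.38 to -1.48. The sign changed for Mest (-0.27 to 0.38 without 1 library) and Ndn (-0.15 to 0.28, and -0.0043 with voom). The adjusted p of Grb10 ranged from 0.062 to 0.29 over its alternatives, and that of Plagl1, Cdkn1c and Sgce from 0.10 to 0.39. The cause of these changes was not tested.

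The replicate numbers did not pair the samples: deviations from the group means correlated at 0.065, 0.027 and -0.254 over genes for numbers 1, 2 and 3, and in no knockout was its own number the closest control.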

Other observations

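Some imprinted genes below the filter, named after their values were seen, were detected at low level. Mkrn3, a paternally expressed neighbour of Ndn, was listed at 0.21, 0.33 and 0.10 FPKM in knockouts and at 0.56, 0.86 and 0.46 FPKM in controls. Peg10, which shares its start region with Sgce in the mouse, had 0.74, 0.61 and 0.47 FPKM in knockouts and 0.92, 0.41 and 0.45 FPKM in controls, and overlapped between groups. Klf14, beside Mest, was listed at 0.24, 0.10 and 0.13 FPKM in knockouts and at 0.77, 0.13 and 0.24 FPKM in controls, with the highest value in control replicate 1, where Nnat and Plagl1 were also highest.
Otof, one of the genes nearest to Nnat in pattern, stood at 1.66 and 1.35 FPKM in control replicates 1 and 3 and at 0.00836 to 0.0286 FPKM in the knockouts and 0.00866 FPKM in control replicate 2.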
